A study of Homo sapiens with 12 samples.

Results

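Transcript isoform use was examined in total RNA from PANC-1, an established human pancreatic ductal carcinoma cell line, after a short exposure to rapamycin. The members were the transcripts of the deposited isoform table with a mean of at least 1 FPKM (fragments scaled by transcript length and by library depth) over the 6 total RNA libraries, and there were 38790 of them among 214292 listed. Of these, 36297 could be placed in 11899 genes of the GENCODE release 44 annotation on GRCh37, and 2493 could not. The share of a transcript is its percentage of the FPKM summed over all placed transcripts of its gene, and it was taken for the 32120 members in the 7722 genes with 2 or more members.

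The study treated cells with vehicle (DMSO) or with 50 nM rapamycin, an inhibitor of the kinase complex mTORC1, and collected them 60 min later. Each treatment had 3 biological replicates, and each replicate gave a ribosome footprint library and a total RNA library, so that 6 of the 12 libraries are used here. Both groups were the same line in DMEM with serum, and results from 1 line describe that line. All 7 epithelial markers (KRT7, KRT8, KRT18, KRT19, EPCAM, CDH1 and MUC1) exceeded 1 FPKM in every library, with a summed level of 4499 to 4778 FPKM. KRT8, KRT18 and KRT19 were at 1326 to 1765 FPKM, while EPCAM, CDH1 and MUC1 were at 2.15 to 7.98 FPKM. The 4 mesenchymal markers summed to 2460 to 2617 FPKM. Of these, VIM was at 2410 to 2568 FPKM, CDH2 and ZEB1 at 22.1 to 26.1 FPKM, and FN1 at 0.438 to 0.827 FPKM. The 4 acinar markers summed to at most 0.295 FPKM.

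Most human genes make several RNAs from 1 locus through alternative promoters, splice sites and ends. SR proteins and hnRNP proteins steer splice site choice, and the SRPK and CLK kinases phosphorylate the SR proteins. Some products keep an intron or gain an early stop codon and are removed by nonsense-mediated decay, and many splicing factors hold down their own level through such a product. mTORC1 signals through S6 kinases to SRPK2 and so reaches splicing as well as translation.

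The 6 libraries held 78081241 to 94293744 reads counted on protein-coding genes. DMSO replicates 1 and 2 listed 133027 and 132712 transcripts above 0, against 146405 to 148099 in DMSO replicate 3 and the 3 rapamycin libraries. In rapamycin replicate 2 the mitochondrial 12S rRNA, MT-RNR1, was listed at 0, against 21316 to 23410 FPKM in the other 5 libraries. Among the members the difference was small, since 38621 to 38635 of them were above 0 in each library. Over the members the correlation of log2(FPKM + 1) was 0.937 to 0.955 for the 6 pairs of libraries within a treatment and 0.932 to 0.956 for the 9 pairs between treatments, so libraries of 1 treatment were no more alike than libraries of both. These are correlations across transcripts, which are not independent replicates.

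The sequences below come from the GENCODE transcripts on GRCh37, and each is a stretch of 30 bases that tells 1 transcript from another of the same gene. Capitals mark the 20 bases on the side of a splice junction that sets the transcript apart, except in RAC1-201. Lower case marks the 10 bases of the exon that the compared transcripts share. In RAC1-201 the capitals start the exon that RAC1-202 reaches after its added exon, so only the junction sets RAC1-201 apart. Those 20 bases occur in 10 annotated transcripts, and 3 other genes carry them. The MTRR, SRPK2 and UGP2 stretches belong to transcripts with some of the smallest p-values for a change in share, or to the transcript that led their gene. The others mark the exon choices of genes described further on.
MTRR-222: TCCCGTCTTTACCTGAAAAGgagctacctt
SRPK2-201: AAGTCGTCCTCTTCAGAAAGgccggagcct
SRPK2-202: AGAGAGAAACATCCGAAAAAgccggagcct
UGP2-203: TTTTGCCTCCCTGAAATCAGatcttagcaa
UGP2-202: GCTGCTAAAGGAAGAGGAAGatcttagcaa
PKM-201: gcagcacctgATAGCTCGTGAGGCTGAGGC
PKM-202: gcagcacctgATTGCCCGTGAGGCAGAGGC
RAC1-201: tccgcaaacaGATGTGTTCTTAATTTGCTT
RAC1-202: tccgcaaacaGTTGGAGAAACGTACGGTAA
RPS24-213: tggcaaaaagAAATGAAGTGTCTAGCAGGT

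Genes with 2 or more members had a median of 3 such transcripts. There were 2275 genes with 2, 1824 with 3, 1186 with 4 and 2437 with 5 or more, up to 32 in AKT2. The leading transcript of a gene held a median of 51.0% of its FPKM (quartiles 37.7% and 67.4%). It held 90% or more in only 322 genes and less than 50% in 3709. Of the 7501 protein-coding genes among them, 89.3% were led by a transcript with a coding sequence, 3.63% by one annotated for nonsense-mediated decay and 3.53% by one with a retained intron.

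Few transcripts were called in the comparison of shares between rapamycin and DMSO. The share of a transcript was compared between treatments with limma on the log2 ratio of its FPKM to the rest of its gene, with 0.1 FPKM added to both, and p-values were adjusted over all 32120 transcripts. At an adjusted p under 0.05, the share of 1 transcript was higher in rapamycin, which is 0.00311% of those tested, and the share of 1 was lower, again 0.00311%. Without adjustment, 716 transcripts (2.23%) were higher and 759 (2.36%) lower at a p under 0.05. The groups did not overlap in 1693 transcripts that were higher (5.27%) and 1592 that were lower (4.96%), 3285 in all (10.2%). The median absolute change in share was 1.09 percentage points, beside a median standard deviation between replicates of 1.85 points in DMSO and 1.76 points in rapamycin.

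The data bound the size of most changes in percentage points, but not in proportion to the share. The 95% interval of the change in share lay within 10 points of 0 for 24882 transcripts, 77.5% of those tested, and within 5 points for 43.7%. Precision followed expression. The half-width of the interval had a median of 1.52 points in the highest quartile of gene FPKM and 7.81 points in the lowest.

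**Figure D1:**
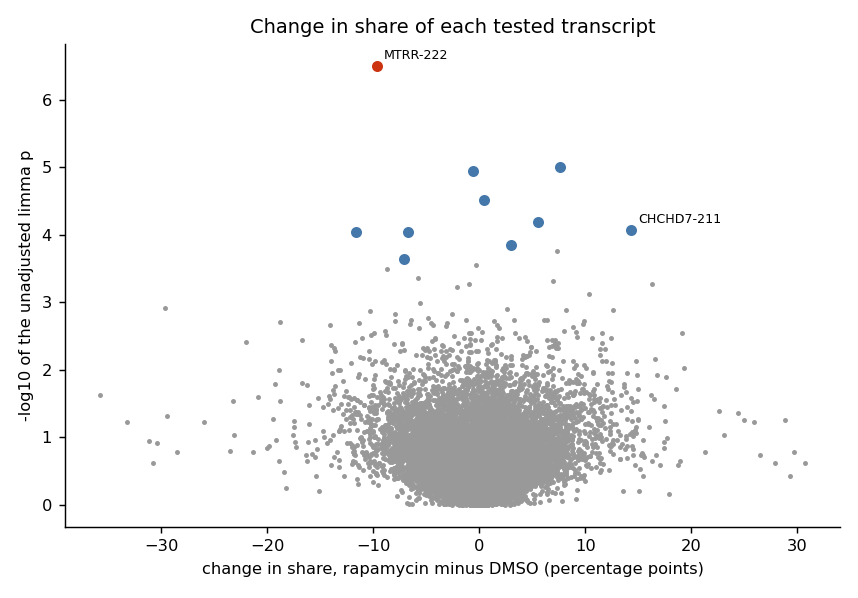
Change in share in percentage points (rapamycin mean minus DMSO mean, horizontal axis) against -log10 of the unadjusted limma p (vertical axis) for the tested transcripts reported here in grey, with the 10 named transcripts in colour. The red point, MTRR-222, passed the adjusted threshold at a change of -9.69 points, and the blue points did not.

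The transcript with the lower share was MTRR-222, of methionine synthase reductase, which reactivates the enzyme that makes methionine from homocysteine. It is a transcript of 386 bases in 4 exons at chr5:7886692-7892876 on the plus strand, annotated as a retained intron. Its share was 8.06%, 9.14% and 11.9% in DMSO and 0% in each rapamycin library, a change of -9.69 points with a 95% interval of -12.8 to -6.54 (limma adjusted p = 0.00612). Behind these shares were 21.8, 30.1 and 31.3 normalized fragments in DMSO and none in rapamycin. Against a floor of 3 fragments per library, this is at least 9.25-fold lower, for counting error only. The 20 bases shown for MTRR-222 occur in no other annotated transcript. MTRR-202, the coding transcript that led the gene, held 36.3%, 28.8% and 37.04% in DMSO and 39.9%, 54.6% and 31.1% in rapamycin, and these ranges overlapped. With levels of 2.05, 2.89 and 3.01 FPKM in DMSO and 0 in rapamycin, MTRR-222 reached the minimum mean of 1 FPKM through DMSO alone, so the minimum drew on the values then compared. With no minimum its limma adjusted p was 0.0487. It did not pass without DMSO replicate 1 or 2 (limma adjusted p = 0.0655 and 0.0663), with a pseudocount of 1 FPKM (0.157), on untransformed percentages (0.9996), or with DMSO replicate 3 as the only control (0.126), where the rapamycin libraries alone supply the spread.

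The next transcripts did not pass the threshold, and they are given as the smallest p-values in each direction. UGP2-203, from an alternative first exon of the gene for UDP-glucose pyrophosphorylase, had shares of 0.0480%, 0.00592% and 0.0520% in DMSO and 8.73%, 10.2% and 4.10% in rapamycin (limma adjusted p = 0.0729). It had at most 1.70 normalized fragments in DMSO and 134 to 330 in rapamycin. Its first exon lies at chr2:64069459-64069571, while UGP2-202, the transcript that led the gene, starts at chr2:64068103-64068366, and both then join the same exon. UGP2-202 is the larger in every library.

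Among the others, SRPK2-201 is of interest for the pathway. SRPK2 encodes a kinase of SR proteins that is a known target of S6 kinase signalling. SRPK2-201 differs from the leading transcript SRPK2-202 in its first exon, at chr7:104909253-104909462 against chr7:105029238-105029368 on the minus strand. It held 2.34%, 2.30% and 2.19% of the gene in DMSO and 5.08%, 5.66% and 5.02% in rapamycin. The groups did not overlap and 91.7 to 248 normalized fragments stood behind each value, but the limma adjusted p was 0.411. Its level was 0.659, 0.642 and 0.587 FPKM in DMSO and 1.40, 1.59 and 1.37 FPKM in rapamycin. SRPK2-201 thus reached the minimum mean of 1 FPKM through rapamycin alone, so the minimum drew on the values then compared. SRPK2-202 held 55.2%, 54.8% and 55.8% in DMSO and 55.2%, 49.8% and 51.6% in rapamycin.

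CHCHD7-211 held 5.88%, 5.28% and 7.57% of its gene in DMSO and 19.1%, 23.4% and 19.3% in rapamycin, a change of 14.4 points with a 95% interval of 10.2 to 18.6. ZFAND6-213 was lower in rapamycin, from 17.8%, 17.0% and 20.8% to 5.93%, 6.82% and 7.88%, and the long noncoding RNA HCG18-239 from 12.97%, 11.8% and 10.7% to 5.42%, 4.26% and 4.34%. These 3 had limma adjusted p-values of 0.294, 0.294 and 0.563. NMD3-210, of the export adaptor of the large ribosomal subunit, held 11.7%, 5.56% and 2.93% in DMSO and 0% in rapamycin. SAR1A-201, of a GTPase that builds COPII vesicles, was listed at 0 or near it in DMSO (at most 0.000205 normalized fragments) and held 7.57%, 6.91% and 2.13% in rapamycin (limma adjusted p = 0.294). The placed transcripts of SAR1A covered 72.9% of its gene FPKM, so these shares are of that part. NAP1L1-225 and PTP4A2-208 differed by less than 1 point, by 0.468 and -0.602 points (limma adjusted p = 0.163 and 0.0729). These transcripts were chosen by their p, so the separation of their groups is no further evidence. Moreover, 4 of the 10 had a mean under 1 FPKM in DMSO and 4 in rapamycin, so they met the minimum through 1 treatment, as did 2195 of the 32120 tested transcripts. That holds for UGP2-203 and SAR1A-201, which passed without rapamycin replicate 3 (limma adjusted p = 0.0104 and 0.00981), and for PTP4A2-208, which passed without DMSO replicate 3 (0.0169), so these passes are no support for a difference.

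**Figure D2:**
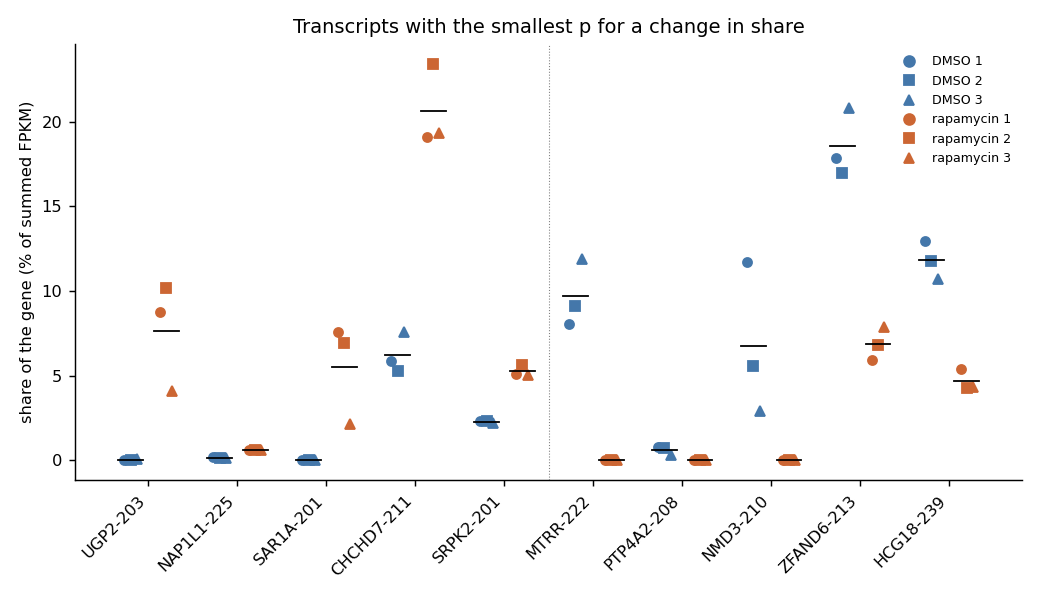
Share of the gene in percent of summed FPKM (vertical axis) for the 10 named transcripts, 5 higher and 5 lower in rapamycin, with 1 symbol per library (blue DMSO, orange rapamycin) and a black bar at the group mean. Among these MTRR-222 (8.06 to 11.9% against 0%) passed the adjusted threshold, and the others did not.

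Few levels were called. Each member was compared by limma on log2(FPKM + 1). At an adjusted p under 0.05, 1 transcript was higher in rapamycin (0.00258% of 38790) and 2 were lower (0.00516%). Without adjustment 712 (1.84%) were higher and 1125 (2.90%) lower at a p under 0.05. The groups did not overlap in 1675 members that were higher (4.32%) and 2356 that were lower (6.07%). The median log2 change over all members was -0.01.

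Both transcripts with a lower level were under 300 bases, met the minimum FPKM through DMSO alone and had at most 2 normalized fragments in any library. TRNAI2-201, 113 bases at chr6:26988114-26988226 and annotated as a miRNA, was at 15.6, 9.15 and 9.63 FPKM in DMSO and 0 in rapamycin, from 1.88, 0.943 and 0.997 normalized fragments. SNORD116-26-201, a box C/D small nucleolar RNA of 96 bases at chr15:25344646-25344741, was at 31.0, 37.2 and 77.6 FPKM in DMSO and 0 in rapamycin, from 0.942, 0.943 and 1.99 fragments. Both groups were under the floor of 3 fragments for each of these RNAs, so no fold is given, and the differences were not resolvable at this depth. With normalized fragments in place of FPKM neither passed, and 0 transcripts were called in either direction.

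A single-exon long noncoding RNA, ENST00000602755 (chr1:109642815-109643241, plus strand, 427 bases), had more reads behind it. It was at 62.3, 54.2 and 53.9 FPKM in DMSO and 28.3, 28.6 and 25.6 FPKM in rapamycin, from 658 to 775 and 310 to 348 normalized fragments. Its level was 1.02 lower on the log2 scale (SE 0.08), without overlap of the groups, but it did not pass (limma adjusted p = 0.111). MCCC2-205, of a subunit of the leucine-degrading methylcrotonyl-CoA carboxylase, was at 0.169, 0.318 and 0.809 FPKM in DMSO and 2.52, 3.25 and 3.39 FPKM in rapamycin (limma adjusted p = 0.928). MCCC2-205 met the minimum FPKM through rapamycin alone, so the minimum drew on the values then compared.

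**Figure D3:**
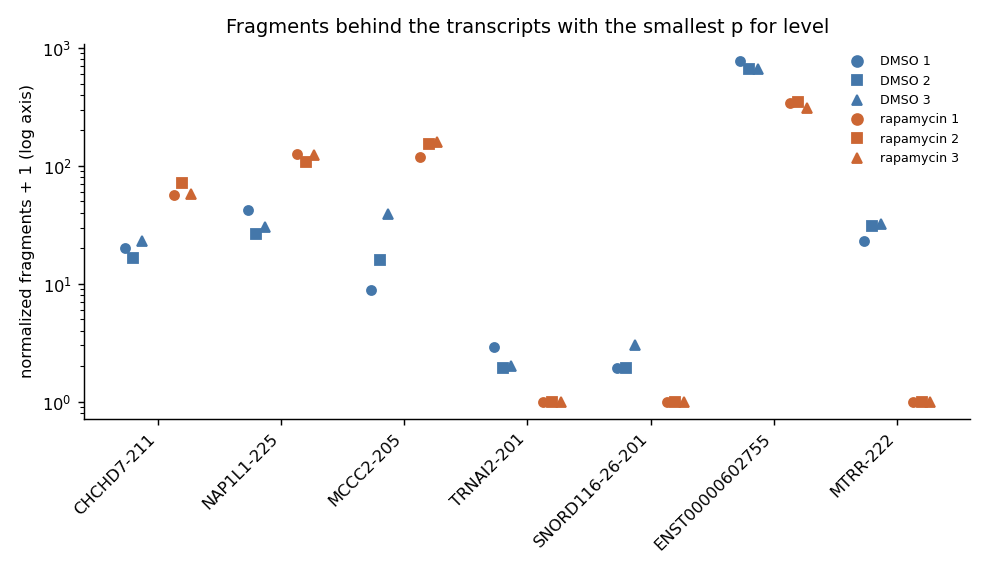
Normalized fragments plus 1 on a log axis (vertical) in each of the 6 libraries for the 7 named transcripts with the smallest p for level, blue for DMSO and orange for rapamycin. TRNAI2-201 and SNORD116-26-201, which passed, lie at 2 fragments or fewer in every library, while ENST00000602755 has 658 to 775 in DMSO and 310 to 348 in rapamycin.

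No transcript of the gene groups that govern splicing was called. Among 12 SR protein genes with 86 tested transcripts, 0 had a higher and 1 a lower share with p under 0.05 before adjustment. That is 1.16% in all, beside 4.59% of all transcripts tested. SRSF1-205, the coding transcript that led SRSF1, held 46.5%, 47.0% and 46.4% in DMSO and 47.8%, 47.3% and 47.0% in rapamycin. SRSF1-207, a nonsense-mediated decay product, held 18.6%, 15.5% and 13.5% in DMSO and 14.9%, 14.9% and 11.6% in rapamycin. In SRSF7 the decay product SRSF7-208 held 17.8 to 21.2% in DMSO and 19.2 to 20.3% in rapamycin, with an interval of the change of -2.54 to 2.18 points. TRA2B-205, also a decay product, held 18.4%, 20.8% and 20.2% in DMSO and 19.7%, 13.2% and 18.3% in rapamycin. SRSF2-202, the leading coding transcript of SRSF2, held 37.9 to 39.8% and 39.3 to 42.2%. For 85 of the 86 SR protein transcripts the 95% interval lay within 10 points of 0.

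The 19 hnRNP genes had 168 tested transcripts, none called, and 3 had a higher and 4 a lower share with p under 0.05 before adjustment. Together these were 4.17%, beside 4.59% of all transcripts tested. HNRNPC-204 held 36.9 to 41.3% in DMSO and 37.7 to 40.3% in rapamycin, and HNRNPK-205 held 32.1 to 33.8% and 31.5 to 34.3%. HNRNPL-210 was 31.8%, 31.6% and 32.2% in DMSO and 30.3%, 29.1% and 30.4% in rapamycin, groups that did not overlap, with a change of -1.93 points (95% interval -2.95 to -0.919, limma adjusted p = 0.986).

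The 8 splicing kinase genes had 48 tested transcripts, and 5 of them (10.4%) reached an unadjusted p under 0.05, beside 4.59% of all transcripts tested. SRPK2-201, CLK3-223 and SRPK1-208 had a higher share and CLK1-205 and CLK2-205 a lower one, and none passed the adjustment. SRPK2-201 and SRPK1-208 reached the minimum mean of 1 FPKM through rapamycin, so the count of 5 partly draws on the values then compared. SRPK1-208 was at 0.761, 0.505 and 0.916 FPKM in DMSO and 0.951, 1.80 and 1.19 FPKM in rapamycin. CLK3-223 held 7.95%, 5.15% and 8.73% in DMSO and 13.1%, 15.1% and 15.0% in rapamycin. CLK1 was led by a decay product, CLK1-204, at 31.4%, 32.5% and 27.9% in DMSO and 27.7%, 22.9% and 23.7% in rapamycin (change -5.84 points, 95% interval -10.5 to -1.19, limma adjusted p = 0.986). Coding SRPK1-202 held 54.7 to 60.1% and 57.7 to 64.8%.

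Genes known for a splice choice with a consequence for the protein had no called transcript. In 21 such genes with 172 transcripts, 7 were higher and 11 lower without overlap of the groups. Over all 32120 tested transcripts, 5.27% were higher and 4.96% lower without overlap. The 95% interval lay within 10 points of 0 for 157 of the 172. Before adjustment 3 had a higher and 5 a lower share with p under 0.05 (4.65%, beside 4.59% of all transcripts tested). Pyruvate kinase is the best known case in tumour cells, since a pair of its exons is used one at a time and gives the M1 and M2 enzymes. PKM-202, which carries the exon at chr15:72494795-72494961 of the M2 enzyme, held 88.1%, 89.9% and 89.8% in DMSO and 89.4%, 88.7% and 89.2% in rapamycin. PKM-201, with the exon at chr15:72495363-72495529 of the M1 enzyme, held 0.969%, 1.61% and 1.28% in DMSO and 1.29%, 1.08% and 1.07% in rapamycin. The change for PKM-202 was -0.198 points with a 95% interval of -1.48 to 1.09. Both exons are 167 bases long, and their first 20 bases are the capitals shown above.

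RAC1 and BIN1 were chosen after their values were seen, RAC1 for its well-known alternative exon and BIN1 for its difference. RAC1-202, which adds the 57 bases at chr7:6438293-6438349 and gives the tumour-associated RAC1b form, held 12.4%, 11.99% and 12.1% in DMSO and 14.5%, 11.9% and 13.05% in rapamycin. For RAC1-202 the interval of the change was -0.642 to 2.67 points. The standard CD44 transcript, CD44-201, held 31.2 to 32.8% and 32.2 to 33.6%. For the actin-binding tropomyosins the ranges also overlapped, with TPM1-206 at 45.03 to 48.5% and 44.9 to 48.0% and TPM2-201 at 77.7 to 80.1% and 78.3 to 79.6%. BIN1-209, of a membrane-bending adaptor protein, had the largest change in points of the list, 10.6 with a 95% interval of 6.19 to 15.1. It held 22.2%, 23.1% and 19.8% in DMSO and 29.99%, 35.5% and 31.5% in rapamycin, without overlap, at a limma adjusted p of 0.986.

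**Figure D4:**
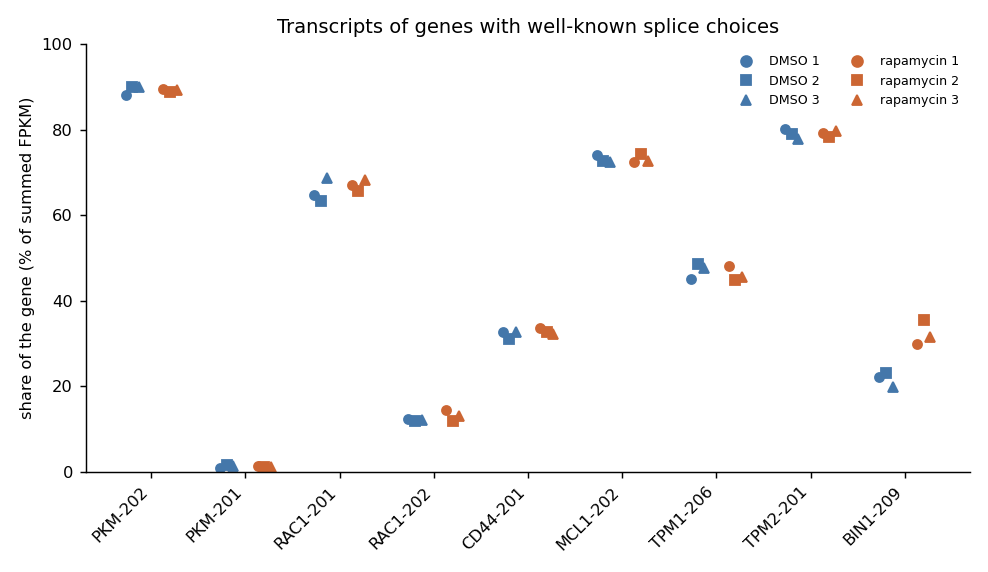
Share of the gene in percent of summed FPKM (vertical axis, from 0) of 9 transcripts of genes with well-known splice choices, 1 symbol per library, blue for DMSO and orange for rapamycin. PKM-202 lies between 88.1 and 89.9% in all 6 libraries, and BIN1-209 is the one whose groups do not overlap (19.8 to 23.1% against 29.99 to 35.5%).

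In the mTOR pathway itself, 30 genes had 199 tested transcripts, of which none was called, 2 had a higher and 7 a lower share with p under 0.05 before adjustment. These 9 were 4.52% of the list, beside 4.59% of all transcripts tested. The elongation factor EEF2 was nearly all EEF2-201, at 94 to 94.6% in DMSO and 94.3 to 94.7% in rapamycin. The leading transcript of the helicase EIF4A1, EIF4A1-201, held 50.2 to 54.1% and 53.1 to 55.6%, and that of ribosomal protein S6, RPS6-201, held 67.7 to 72.8% and 69.5 to 72.8%. In AKT2 the transcripts AKT2-241 and AKT2-210 held 18.7 to 25.4% and 17.5 to 21.3% in DMSO and 23.5 to 25.6% and 15.8 to 17.3% in rapamycin. The groups overlapped for AKT2-241 and not for AKT2-210, whose limma adjusted p was 0.986.

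No transcript was called in 4 further lists. Shares with an unadjusted p under 0.05 made up 4.59% of all transcripts tested. They made up 3.33% of the decay factor, 2.99% of the sterol and fatty acid and 4.92% of the immediate-early transcripts. Among 10 genes of nonsense-mediated decay factors with 30 transcripts, 1 had a higher and 0 a lower share with p under 0.05 before adjustment, and the kinase transcript SMG1-201 held 51.2 to 55.3% in DMSO and 51.0 to 57.7% in rapamycin. Among 16 sterol and fatty acid synthesis genes with 67 transcripts, 1 was higher and 1 lower, and CYP51A1-201, of the sterol demethylase, held 68.1 to 74.1% and 71.0 to 72.5%. The largest change of that list, named after its values were seen, was in HMGCS1, an early enzyme of the sterol pathway. HMGCS1-201 held 53.2%, 45.002% and 39.0% in DMSO and 39.9%, 29.9% and 29.6% in rapamycin, groups that overlapped (-12.6 points, 95% interval -23.9 to -1.26, limma adjusted p = 0.986). Among 17 immediate-early genes with 61 transcripts, 1 was higher and 2 lower, and FOS-201 held 53.0 to 57.7% and 53.5 to 57.4%. Among 14 snoRNA host genes with 119 transcripts, 5 were higher and 5 lower (8.40% in all, beside 4.59% of all transcripts tested), SNHG5-202 held 83.1 to 84.1% and 83.4 to 86.2%, and GAS5-204, with a retained intron, held 7.57%, 7.05% and 6.81% in DMSO and 6.19%, 5.76% and 5.65% in rapamycin, without overlap (limma adjusted p = 0.986).

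Cytosolic ribosomal protein genes, whose mRNAs are the classical translational targets of mTORC1, had more transcripts with a lower than with a higher share. The 80 genes had 559 tested transcripts, none of them called, and 7 (1.25%) had a higher and 30 (5.37%) a lower share with p under 0.05 before adjustment, beside 2.23% and 2.36% of all transcripts tested. Of their 304 coding transcripts, 6 were higher and 9 lower. Of their 167 retained-intron transcripts, 0 had a higher and 17 (10.2%) a lower share with p under 0.05 before adjustment, and 135 (80.8%) had a lower mean log2 share ratio in rapamycin. The retained-intron transcripts of all other genes had 165 higher and 122 lower of 5922 by the same measure, and 46.3% had a lower ratio. All 3 rapamycin libraries were below all 3 DMSO libraries for 31 of the 167 (18.6%), beside 4.96% of all tested transcripts, and above them for 1. Transcripts of these genes with no defined coding sequence leaned the same way, with 40 of 52 (76.9%) lower, 0 higher and 3 lower at that p, and 8 (15.4%) below without overlap and 0 above. In the same class of other genes 50.7% were lower, and 4.82% were below without overlap. Decay products of the ribosomal protein genes did not lean that way, with 14 of 35 (40.0%) lower, and 1 higher and 1 lower at that p. This split by transcript class was made after the values were seen and was given no test, and the genes share libraries and read depth. The transcripts set beside these were not matched for gene FPKM. Precision followed expression, with a median half-width of 1.52 points in the highest quartile of gene FPKM and 7.81 points in the lowest. Percentages without overlap or under a given p depend on that precision.

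Summed over the retained-intron members of each gene, the share was lower in rapamycin for 54 of 64 ribosomal protein genes (84.4%) and for 46.2% of 2977 other genes. It was below all DMSO libraries in every rapamycin library for 16 of the 64 (25%) and above them for 1, RPL13. Among the other genes, which were not matched for FPKM, 4.84% were below and 6.25% above. The changes were small in absolute terms, with a median of -0.147 points from a median DMSO share of 2.37%. The shares varied widely between genes, with DMSO means from 0.230% in RPS20 to 95.9% in RPS27, a gene of 15.2 FPKM. Replicates also differed in some genes, as in RPL14, at 0.992 to 8.82% in DMSO and 0.909 to 16.4% in rapamycin. In RPS24 the 4 retained-intron transcripts together held 3.72%, 3.20% and 3.19% in DMSO and 2.52%, 2.39% and 2.62% in rapamycin. RPS24-213, whose last exon at chr10:79797723-79797862 begins with the capitals shown above, was at 46.3, 30.7 and 35.5 FPKM in DMSO and 19.3, 19.2 and 22.4 FPKM in rapamycin. The other genes of highest FPKM were RPS16, RPL37A and RPL27A. RPS16 was at 3.91%, 3.80% and 3.76% in DMSO and 3.52%, 3.94% and 3.49% in rapamycin, and RPL27A at 1.81 to 2.25% and 1.66 to 1.98%, both with overlap. RPL37A was at 1.26%, 1.19% and 1.31% against 1.12%, 1.07% and 1.01%, without overlap. The largest differences in either direction, in RPSA at -6.32 points and RPS23 at 2.76 points, were between groups that overlapped. RPS24-213, RPSA, RPS23, RPL13, RPL14, RPS20 and RPS27 were picked after their values were seen. RPL13 was at 4.05%, 3.16% and 3.99% in DMSO and at 4.61%, 4.404% and 4.89% in rapamycin.

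The summed FPKM of these 167 transcripts was 3348, 3391 and 3284 in DMSO and 3160, 3113 and 3196 in rapamycin, groups that did not overlap. The coding transcripts of the same genes summed to 51223, 52644 and 52035 FPKM in DMSO and 51325, 49526 and 51988 FPKM in rapamycin, which overlapped. The count of 135 with a lower ratio was 114 without rapamycin replicate 2, 118 with DMSO replicate 3 as the only control and 114 to 132 over the 6 libraries left out in turn.

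**Figure D5:**
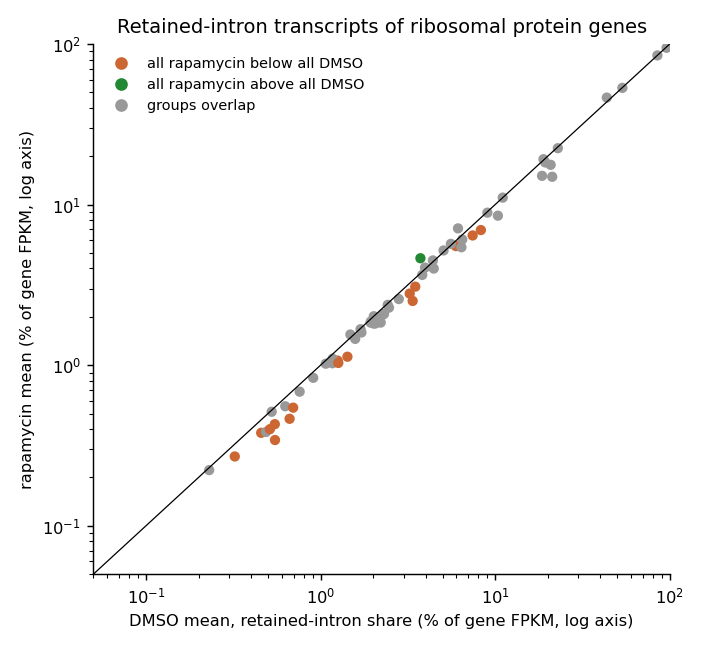
Summed share of retained-intron members in 64 ribosomal protein genes, DMSO mean (horizontal) against rapamycin mean (vertical), both in percent of gene FPKM on log axes, with the line of equal shares. Orange genes (16) have every rapamycin library below every DMSO library, the green gene is RPL13, and 54 of 64 lie below the line.

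Transcript classes as a whole overlapped between treatments. Of the FPKM held by members of protein-coding genes, retained-intron transcripts took 6.65 to 7.02% in DMSO and 6.67 to 6.85% in rapamycin, and nonsense-mediated decay products 4.43 to 4.49% and 4.43 to 4.44%. As a percentage of the FPKM of all members, coding transcripts were at 38.04%, 39.3% and 38.4% in DMSO and 38.3%, 38.3% and 39.7% in rapamycin (two-sided exact permutation p = 0.7). Retained-intron transcripts were at 3.25%, 3.16% and 3.12% and at 3.09%, 3.18% and 3.22% (exact permutation p = 0.8), and decay products at 2.02%, 2.09% and 2.02% and at 2.02%, 2.03% and 2.09% (exact permutation p = 0.9). The smallest p that 3 against 3 libraries allow is 0.1. Long noncoding RNAs were at 0.710%, 0.732% and 0.732% in DMSO and 0.718%, 0.825% and 0.727% in rapamycin (exact permutation p = 0.6).

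The most used transcript of a gene was the same in all 6 libraries for 5964 of 7722 genes (77.2%), and it differed between the treatment means for 501 (6.49%). Genes that differed had no clear leader, with a median of 30.6% for the leading transcript against 52.5% in the other genes. In only 24 of the 501 did every library keep to its treatment. The 8 of highest expression among the 501 were RPLP2, TPM3, MIF, HNRNPA1, FHL2, STT3A, UGDH and CLTC, and in none of them did every library keep to its treatment. In RPLP2, of the ribosomal stalk, RPLP2-206 held 48.0%, 52.0% and 39.5% in DMSO and 40.1%, 52.1% and 40.3% in rapamycin, so that the leader changed between replicates of 1 treatment. In CLTC, the clathrin heavy chain, CLTC-202 held 45.5%, 41.0% and 41.5% in DMSO and 41.8%, 35.1% and 41.6% in rapamycin.

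Of the 24 genes in which every library kept to its treatment, the 4 of highest expression were SF1, a branch-point binding splicing factor, UQCR10, a subunit of respiratory complex III, EXOC5, of the exocyst, and ORC2, of the origin recognition complex. UQCR10-202 held 58.3%, 52.6% and 50.5% in DMSO and 48.3%, 46.7% and 49.9% in rapamycin, and its partner UQCR10-201 took the rest. ORC2-206, which has no defined coding sequence, held 38.2%, 37.5% and 35.2% in DMSO and 29.2%, 32.4% and 28.8% in rapamycin, and coding ORC2-201 held 32.2%, 30.1% and 33.6% and then 40.6%, 33.3% and 36.1%. PSPC1, of a paraspeckle protein, is not among these 4, so its values are not given on account of its FPKM. A pair of its decay products differed in order. PSPC1-203 was at 38.5%, 34.3% and 33.1% in DMSO and 22.2%, 23.3% and 30.4% in rapamycin (limma adjusted p = 0.986). PSPC1-204 held 29.7%, 32.7% and 31.2% in DMSO and 41.9%, 43.8% and 36.1% in rapamycin. Others were FAM76B, HYI, DCAF11, SSH3, CARD8, MZF1, RAB9A, MED15, RAD52, ITPK1, CCDC66, RNF32-DT, ZNF142, TECPR1, UAP1L1, PRMT9, MYH15 and NUDT13, and their transcripts had limma adjusted p-values of 0.986 or more.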

How the data were processed

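Total RNA of PANC-1 cells was sequenced by the authors from 3 DMSO and 3 rapamycin cultures, labelled biological replicates. The submitters' processing notes name HISAT2, featureCounts, Cufflinks 2.2.1 and Cuffnorm, and the transcript annotation release is not given in the sources used here. The deposited isoform FPKM and gene FPKM values, and the deposited normalized fragments (a signal scaled between libraries, not whole counts), were made by the authors with Cuffnorm, while the deposited read counts per gene came from featureCounts and were used here only as depth. Reads were divided among overlapping transcripts by a model, so transcripts that share most of their sequence, and short ones, are uncertain. A normalized gene table and the authors' own comparisons (RiboDiff fold changes and p-values) were not used, and 0 sample columns were left unmapped. Identifiers were matched to GENCODE release 44 on GRCh37, and transcripts without a match were left out of gene totals. In 5466 of the 7722 genes the placed transcripts summed to within 1% of the gene FPKM in every library. Where they covered less, as in CLK3 (86.9%), shares are of the covered part.

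Levels were tested as log2(FPKM + 1) and shares as the log2 ratio of a transcript to the rest of its gene with 0.1 FPKM added, with limma 3.58.1 in R 4.3.3 (trend and robust estimation) and Benjamini-Hochberg adjustment over all transcripts tested. Fold changes on these scales understate those of low transcripts. Summaries used Python 3.11 and pandas 2.3.3. Intervals of shares are 95% intervals from limma on the untransformed percentages. Shares under 1e-06 were written as 0. Count tests could not be used, since no isoform read counts were at hand. The scripts were tested on simulated data. Transcripts were named by the smallest p, 6 per direction for shares and 4 for levels where fewer than 5 passed, genes with a different most used transcript by the 8 of highest FPKM and by every library keeping to its treatment, and list examples by FPKM, with exceptions said in place. Some transcripts that met this rule are not reported here. Members and lists were chosen with earlier results of these data known. Alternatives covered the pseudocount, expression minimum, normalization, model, replicate block and each library left out. Samples with the same replicate number were checked for shared deviations.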

Additional observations from a re-analysis of the deposited data

How the results depend on the processing

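Counts of called transcripts were small under most alternatives, and limits follow from that. In the order level higher, level lower, share higher, share lower and genes with a called share, the counts were 1, 2, 1, 1 and 2 as reported. With no minimum FPKM they were 260, 68, 4, 3 and 7, with a minimum mean of 5 FPKM 0, 1, 0, 0 and 0, and with DMSO replicate 3 as the only control 1, 16, 0, 0 and 0. Of the 260 higher levels with no minimum, 255 were under 1 FPKM. In 27 of these 255, DMSO replicates 1 and 2 were below DMSO replicate 3 and every rapamycin library. With the normalized isoform count table the counts were 0, 0, 0, 1 and 1. With transcripts of at least 300 bases, chosen after seeing the data, they were 0, 0, 0, 1 and 1. A pseudocount of 0.1 FPKM gave 0 higher levels, and one of 1 FPKM gave 0 and 0 shares in 0 genes. Genes whose transcripts sum to the gene FPKM within 1%, also chosen after seeing the data, gave 0 and 0 shares in 0 genes. MTRR was covered to 94.9% and is not among these genes, so MTRR-222 could not be called there. It was also below the minimum of 5 FPKM and below a mean share of 5%, and was not tested under those settings. Limma without trend and robust estimation, and a gene total over tested transcripts only, each gave 2 lower shares, while untransformed percentages and a mean share of at least 5% each gave 1 gene. Limma's diffSplice called 41 higher and 39 lower transcripts in 75 genes, of which 2 were among the transcripts called above and 67 had an unadjusted p under 0.05 there. The cause of these differences was not tested. Leaving out each library in turn gave 0 to 3, 0 to 5, 0 to 5, 0 to 4 and 0 to 9, and 542 to 582 genes with another most used transcript. That count was 501 as reported, 4738 with no minimum, 320 with the count table and 316 in complete genes. The lncRNA share differed by 0.0322 points as reported, by 0.181 points with the count table, and by -0.00188 to 0.0513 points with a library left out. For coding, retained-intron, decay and undefined transcripts those ranges were -0.289 to 0.546, -0.0439 to 0.0248, -0.0219 to 0.0248 and -0.0175 to 0.0298 points.

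Same-numbered samples correlated weakly, at -0.01, 0.09 and 0.04, in their deviations of level. Samples with different numbers correlated at -0.08 to 0.04. These values cannot show whether same-numbered samples were prepared together. With the replicate number as a block, the pairing gave 0 calls for levels and 0 for shares, in 0 genes, at a smallest adjusted p of 0.430 and 0.435 by limma, with 753 and 1170 levels and 726 and 740 shares at an unadjusted p under 0.05.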
